A study of Mus musculus with 9 samples.

Results

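The 84 genes described here carry the symbols of proteins of the cytosolic ribosome and were read out in fibroblasts sorted from lungs of mice at an early metastatic stage. They were chosen by symbol among the 55302 gene symbols of the deposited tables. A gene was a member if its symbol was Rpl or Rps followed by a number and at most 1 of the letters a, l, x or y, or if it was Rplp0, Rplp1, Rplp2, Rpsa or Fau. Symbols with -ps, which name pseudogenes, and the Rps6k kinases were left out. Of the members 81 are annotated as protein coding, while Rpl6l, Rpl32l and Rps4l, which the rule by symbol takes in, are annotated as processed pseudogenes. All 84 were found in the GENCODE M21 annotation of mm10, on 20 chromosomes, 51 of them assigned by symbol to the large subunit and 33 to the small subunit.

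The study compared 4 mice given PBS, which the labels also call saline, with 5 mice given doxorubicin (DOX), a DNA-damaging anthracycline. Per the methods, female mice aged 8 weeks received breast cancer cells in the mammary fat pad, the primary tumor was resected, and 2 intraperitoneal doses of 5 mg/kg DOX or PBS followed. Lungs were collected 24 h after dosing ended. The labels give neither the tumor line nor the mouse strain of these 9 mice, and the methods describe more than 1 model. The sorted cells were CD45-, EpCAM- and PDGFRα+ per the labels, to which the methods add CD31-. The labels number the libraries of a group as biological replicates.

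A ribosome joins a small subunit, which reads the mRNA, to a large subunit, which forms the peptide bond, and both are built of ribosomal RNA and the proteins described here. Nearly every cell uses these genes, and many of their mRNAs start with a terminal oligopyrimidine (TOP) run through which mTOR and LARP1 set their translation. Cells with an impaired ribosome assembly can stabilise p53 through RPL5 and RPL11, which bind 5S ribosomal RNA. Most of these genes also left many processed pseudogenes in the genome, so that a short read can match several places.

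The starts of the genes are shown first because the TOP run is a shared feature that the choice by symbol did not use. Starts were taken from RefSeq (GRCm38.p6) for the 62 members that had a match, and a start was counted as TOP if it began with C followed by at least 4 bases of C or T. Of the 62 genes 15 had such a start (24.2%), against 3.01% of all 27025 genes listed with a start. Each line gives 5 bases before the listed start and 25 from it, on the strand of the gene, with the TOP run in capitals. The first 5 genes hold a TOP start, and the last 3 are members with high counts and no TOP run at the start shown.
Rps21, chr2:180257374-180257403, plus strand: ccgccCTCCTgcccaatagtgctgcggagg
Rplp2, chr7:141447646-141447675, plus strand: tcttcCTTTCgccgccggacgccgccgagg
Fau, chr19:6057942-6057971, plus strand: cacttCTTCCTCTTTCTTgactccatcttc
Rpl15, chr14:18270962-18270991, minus strand: gccttCTTCCTTTCCTCTggcggcagccat
Rps27, chr3:90213624-90213653, minus strand: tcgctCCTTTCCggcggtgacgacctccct
Rpl10a, chr17:28328466-28328495, plus strand: cccagcggccgcaaactgcagcgcctctcc
Rps25, chr9:44407709-44407738, plus strand: atcttagcgaggctgctgtggtctacacga
Rpl37, chr15:5116608-5116637, plus strand: gcggaagcttatccacaggaagtggcgggg
The run was 5 bases long in Rps21 and Rplp2, 7 in Rps27, and 13 in Fau and Rpl15. A start without the run says only that these letters are not at the listed position.

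Libraries were made by MARS-seq, which tags transcripts near their 3′ end and keeps the strand. The deposited values are normalized counts, and the reads recovered from them numbered 432322 to 1285816 per library. The ribosomal RNA gene CT010467.1 took 5.74 to 9.34% of the reads in PBS and 7.91 to 35.3% in DOX, with the highest share in DOX replicate 2. PBS replicate 4 stood apart in cell type markers. Its 14 granulocyte markers summed to 1256 normalized counts against 23.97 to 91.1 in the other libraries, its 12 epithelial markers to 484 against 16.9 to 178, its 12 pan-immune markers to 307 against 3.71 to 38.4, and its 7 red blood cell markers to 81.8 against 0 to 7.17. Markers of fibroblasts, 12 genes, were at a sum of 2023 in PBS replicate 4 and of 2999 to 4097 in the others, and none of them was at 0 in all libraries. Single genes weighed heavily in some sums. In PBS replicate 4 S100a8 alone was at 756 among the granulocyte markers, and Col1a1 at 1027 among those of fibroblasts. Pdgfra, the gene of the sorting marker, was at 0.810 to 11.99 in PBS and 0.928 to 8.22 in DOX, while Ptprc, which encodes CD45, was at 0 to 2.52 and 0 to 7.17. The summed lymphocyte markers (12 genes, Ms4a1 among those at 0 in all libraries) were lower in every PBS library (6.33 to 22.7) than in any DOX library (27.1 to 45.1). The sums of endothelial cells (12 genes), monocytes and macrophages (12), smooth muscle cells and pericytes (12) and mesothelial cells (10) overlapped between the groups. In endothelial markers PBS replicate 4 was the highest library, at 224 against 72.9 to 156 in the others. For smooth muscle cells and pericytes it was at 220 against 103 to 218.

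By the deposited counts, ribosomal protein genes were at low to middle levels in these libraries. The strand setting of the counting is not given in the sources used here, and of the 100 highest genes tested 90 lie over the last exon of a protein-coding gene on the other strand. The values of the members and of the other genes, the markers above included, may therefore not be levels of their own mRNA, here and below. This was not tested. Of 6303233 recovered reads 30514 fell on the 84 members, or 0.484%. By normalized count, with no scaling for length, 0 members were among the 100 genes of highest mean, 3 among the first 500 and 16 among the first 1000. In mean normalized count 7 members were at 100 or more, 11 at 50 to under 100, 34 at 10 to under 50, 27 at 1 to under 10, 2 above 0 and under 1, and 3 at 0. The reads were uneven among the members. The 4 members of highest count, Rplp1, Rpl10a, Rps25 and Rpl37, held 31.5% of the members' summed values, and the highest 8, with Rpl37a, Rpl36 and Rps3 among them, held 45.2%.

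**Figure D1:**
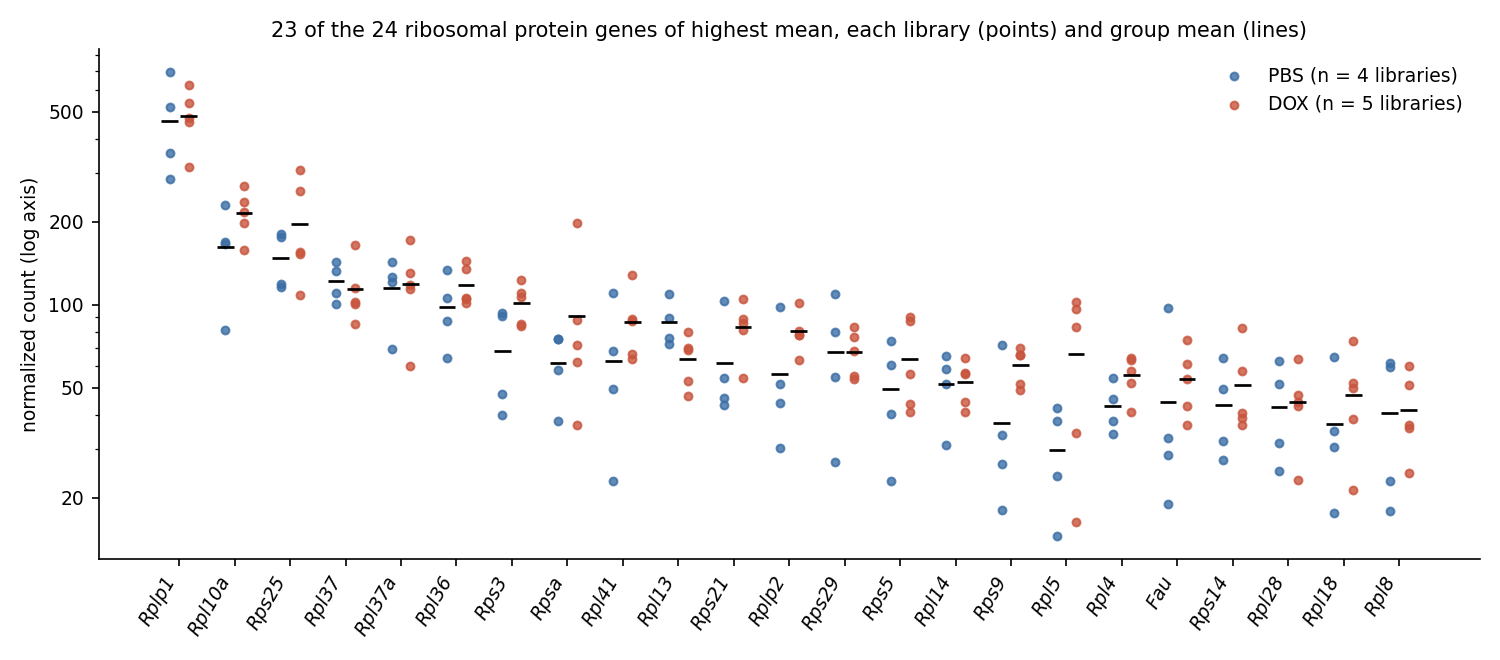
Normalized counts (log axis) of 23 of the 24 members of highest mean, with 1 point per library, PBS in blue (n = 4) and DOX in red (n = 5), and a black line at each group mean. Rplp1, at 286 to 694, is the highest member in each of the 9 libraries, and the points of both groups overlap in each of the 23 genes.

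The P stalk, the arm of the large subunit that recruits elongation factors, was read mainly through Rplp1. Rplp1 (chromosome 9, 61913284 to 61914542), an acidic protein of the stalk's tip, was at 286, 356, 520 and 694 normalized counts in PBS replicates 1 to 4 and at 624, 474, 458, 540 and 316 in DOX replicates 1 to 5. The range of the DOX libraries lay inside that of the PBS libraries (464 ± 182, SD, n = 4, against 482 ± 114, SD, n = 5). Per kilobase of merged exon its mean was 950 normalized counts, above Rpl36 at 285 and Rps29, the next, at 97.4. Rplp2, with which Rplp1 pairs in the stalk, was at 44.0, 51.7, 30.3 and 98.0 in PBS and at 101.1, 77.4, 63.3, 80.7 and 77.9 in DOX. PBS replicate 4 was the only PBS library inside the DOX range of Rplp2. Per kilobase Rplp2 was at 33.5, and Rplp0, the base of the stalk, at 15.8. Rplp0 was at 11.99 to 39.7 in PBS and 19.5 to 42.6 in DOX. Rpl12, which binds the stalk's base, was at 20.98 to 31.6 and 20.2 to 33.7.

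The other members of highest count differed in spread. Rpl10a, which forms the mobile L1 stalk at the exit site for tRNA, was at 169, 230, 165 and 81.0 in PBS and at 198, 269, 218, 158 and 235 in DOX. Rps25, a small subunit protein known for its part in initiation at some viral RNAs, was at 181, 119, 175 and 116 in PBS and at 109, 155, 152, 259 and 309 in DOX. The highest Rps25 values were those of DOX replicates 4 and 5, and of the other DOX libraries 2 lay inside the PBS range and 1 below it. Rpl37 and Rpl37a, both zinc-binding proteins of the large subunit, had close means (122 and 115 in PBS, 114 and 119 in DOX). Rpl36 was at 63.9 to 134 in PBS and 102 to 144 in DOX, ranges that overlap.

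The 5S RNA particle pairs Rpl5 with Rpl11. Rpl5 (chromosome 5, 107900502 to 107909005) was at 38.0, 42.2, 23.98 and 14.6 in PBS and at 34.3, 83.2, 16.3, 96.4 and 102 in DOX. Its DOX libraries fell into a low pair, replicates 1 and 3, inside the PBS range, and 3 libraries above it. Rpl11 was at 3.00, 26.4, 22.7 and 8.10 in PBS and at 13.9, 31.0, 9.19, 16.4 and 13.3 in DOX, with wide overlap. Per kilobase Rpl5 was at 12.8 and Rpl11 at 5.93 normalized counts.

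Members made as fusions were read at different levels. Fau, which encodes a ubiquitin-like protein fused to a small subunit protein, was at 19.0, 28.5, 32.8 and 97.2 in PBS and at 53.8, 36.8, 42.9, 74.7 and 61.0 in DOX. Again PBS replicate 4 was high, and the other 3 PBS libraries lay below all DOX libraries. Rps27a, the fusion of ubiquitin to a small subunit protein, was at 0 to 5.05 in PBS and 0 to 13.9 in DOX, too low to test. Per kilobase Fau was at 51.6 and Rps27a at 2.37.

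Members with paralog or -like symbols were near or at 0. Rpl10l and Rpl39l, both known from the testis, and the processed pseudogene Rpl6l had 0 of 6303233 reads, a count that allows up to 3 reads over all libraries. Rpl3l, the paralog of Rpl3 in heart and skeletal muscle, was at 7.47 normalized counts in DOX replicate 4 and at 0 in the other 8 libraries. Rps27l, known as a target of p53, was at 0, 0, 2.52 and 2.43 in PBS and at 2.78, 3.87, 0, 2.99 and 2.56 in DOX. Of the other processed pseudogenes, Rps4l was at 0 to 2.52 in PBS and 0.512 to 1.94 in DOX, and Rpl32l had 3 reads, all in PBS replicate 2. These limits cover counting error only.

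The share of each library's reads that fell on the 84 members overlapped between PBS and DOX. It was 0.326% in PBS replicate 1 (95% exact binomial interval 0.312 to 0.340%), 0.418% in replicate 2, 0.434% in replicate 3 and 0.598% in replicate 4 (0.581 to 0.616%). In DOX replicates 1 to 5 it was 0.525%, 0.378%, 0.503%, 0.591% and 0.477%. The intervals cover the counting of reads only, and the spread between libraries was wider than any of them. The means were 0.444 ± 0.113% (SD, n = 4) and 0.495 ± 0.0776% (SD, n = 5), a difference of 0.0506 percentage points that was smaller than either SD. The difference was 0.0112 without PBS replicate 1, 0.102 without PBS replicate 4, 0.0797 without DOX replicate 2 and 0.0266 without DOX replicate 4. DOX replicate 2, the lowest of its group, was the library of the highest ribosomal RNA share. With the reads of that gene left out of the total, the shares were 0.352, 0.450, 0.479 and 0.635% in PBS and 0.587, 0.584, 0.547, 0.683 and 0.573% in DOX. PBS replicates 1 to 3 then lay below all 5 DOX libraries and PBS replicate 4 inside their range. The part that ribosomal RNA, the cell type markers in which PBS replicate 4 stood apart, and the lymphocyte markers had in this was not tested. In bulk libraries a change in the cells sorted and a change of RNA per cell cannot be told apart.

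**Figure D2:**
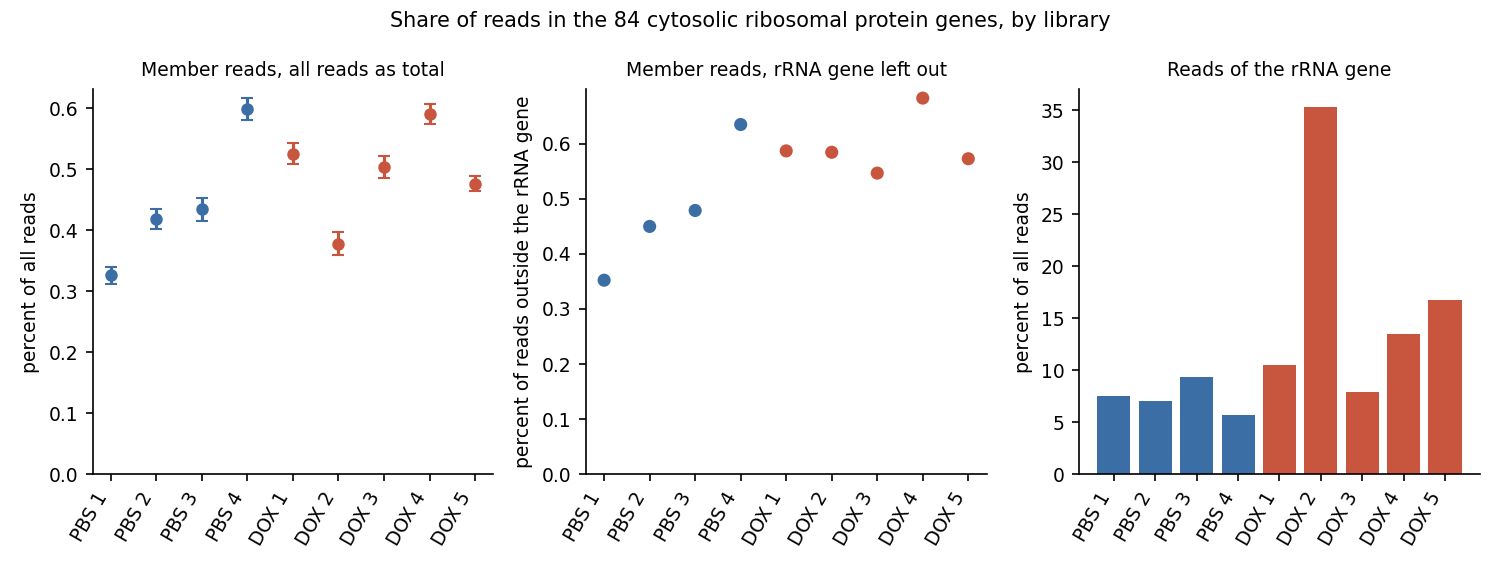
Share of reads on the 84 members in each library, as a percentage of all reads with 95% exact binomial intervals (left) and of the reads outside the ribosomal RNA gene (middle), beside the share of that gene (right), PBS in blue and DOX in red. PBS replicate 1 is lowest at 0.326%, PBS replicate 4 and DOX replicate 4 are highest at 0.598 and 0.591%, and the ribosomal RNA gene reaches 35.3% in DOX replicate 2.

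Both subunits contributed in both groups. The summed normalized counts of the large subunit members were 1418 to 2384 in PBS and 1940 to 2389 in DOX, and those of the small subunit members 638 to 1175 and 1013 to 1527. The ratio of large to small was 2.22, 2.34, 1.97 and 2.03 in PBS (2.14 ± 0.171, SD, n = 4) and 2.28, 1.90, 1.91, 1.56 and 1.68 in DOX (1.87 ± 0.275, SD, n = 5). The ratios overlapped, with 4 of 5 DOX libraries below all 4 PBS libraries. Rplp1 alone held 13.9 to 19.5% of the members' values in PBS and 10.1 to 18.5% in DOX.

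No ribosomal protein gene passed the test between DOX and PBS. Values were compared on the scale log2(normalized count + 1) by limma with its variance trend, for the 2604 genes that reached 10 in 4 or more libraries, and p-values were adjusted over all of these by Benjamini-Hochberg. It called 0 genes at an adjusted p of 0.05 (0% of those tested), and 0 were called by edgeR or limma-voom on the recovered reads. DESeq2 called 0 of the 581 genes, 6 of them members, for which it gave an adjusted p. At an unadjusted p under 0.05 limma had 162 genes (6.22%), edgeR 148, DESeq2 174 and limma-voom 160. Of the 84 members 51 were high enough to test, 30 of the large subunit and 21 of the small. At an unadjusted p under 0.05, 2 members had a higher fitted mean in DOX (3.03% of all genes tested did) and 0 had a lower one (3.19% of all genes tested). Among the members edgeR had 0, DESeq2 1 and limma-voom 2 at this p. With 1 added before the logarithm, fold changes of genes with few reads come out smaller than they are.

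Although no single gene passed, the fitted mean of most members was higher in DOX. It was higher in 44 of the 51 tested members, against 49.4% of all genes tested, and the median log2 fold change was 0.41 for the members and -0.01 for all genes. The members share the libraries, so that a library high or low in all of them moves all 51 at once, and these counts carry no test. The filter asks for 4 libraries of any group, so the counts were also taken with no filter, where 68 of the 81 members above 0 had a higher fitted mean (51.2% of all 17428 genes did) and the median was 0.41. With no filter 3 members had an unadjusted p under 0.05, all higher in DOX (1.16% of all genes). The median deviation of the tested members from their mean over all libraries, on the log2 scale, was -0.71, -0.23, -0.23 and 0.39 in PBS replicates 1 to 4 and 0.27, 0.04, 0.06, 0.51 and 0.14 in DOX replicates 1 to 5. PBS replicate 1 lay lowest and PBS replicate 4 above 4 of the 5 DOX libraries. Without PBS replicate 1 the median log2 fold change was 0.22 with 37 of 51 members higher, and without PBS replicate 4 it was 0.63 with 46 of 51 higher (50.7% of all genes). In the fit without PBS replicate 4, 8 members had an unadjusted p under 0.05, all higher in DOX (4.61% of all genes), and 0 passed after adjustment.

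**Figure D3:**
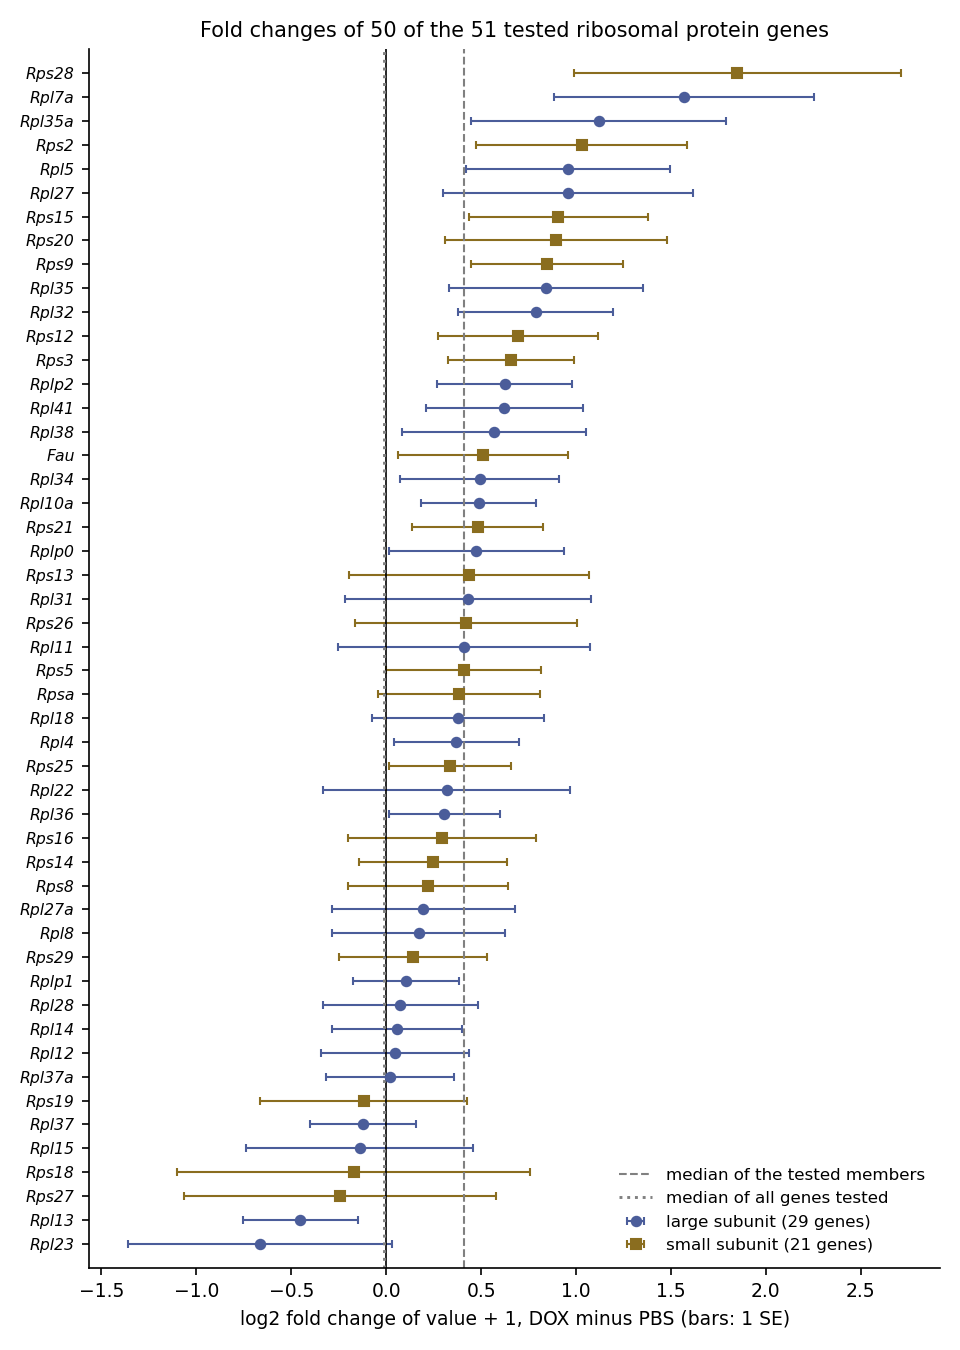
Log2 fold change (DOX minus PBS, on normalized count + 1) of 50 of the 51 tested members with bars of 1 standard error, large subunit as circles and small subunit as squares. Values run from -0.66 for Rpl23 to 1.85 for Rps28, 43 of 50 points lie right of 0, and the dashed median of all 51 members at 0.41 lies right of the dotted median of all genes tested at -0.01.

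Among members with a higher mean in DOX, the lowest p-values belonged to Rpl7a, Rps28, Rps9, Rps3, Rpl32 and Rps15. Rpl7a, a large subunit protein whose introns hold small nucleolar RNAs, was at 4.00, 3.17, 46.7 and 6.48 in PBS and at 17.6, 31.0, 22.5, 23.9 and 44.6 in DOX. PBS replicate 3 was the highest of all 9 libraries, and the other PBS libraries lay below every DOX library (log2 fold change 1.57, standard error 0.68, limma's adjusted p = 0.761). Rps28, which sits near the exit of the mRNA channel, was at 4.00, 2.11, 25.2 and 0.810 in PBS and at 8.35, 38.7, 27.6, 29.9 and 6.15 in DOX. PBS replicate 3 was again high, and the fold change carried a standard error of 0.86 (log2 fold change 1.85, adjusted p = 0.761 from limma). At the 3′ end both genes share sequence with other genes, Rpl7a in 80.5% and Rps28 in 64.5% of 50-base windows.

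In the other 4 members the groups overlapped through PBS replicate 4, in Rps3 through PBS replicate 3 as well. Rps9, a protein of the mRNA entry side of the small subunit, was at 18.0, 33.8, 26.5 and 71.3 in PBS and at 65.9, 69.7, 49.0, 65.7 and 51.7 in DOX. PBS replicates 1 to 3 lay below all DOX libraries, and PBS replicate 4 was the highest of all 9 (log2 fold change 0.85, standard error 0.40, limma's adjusted p = 0.761). Rps15, in the head of the small subunit, was at 8.99, 23.2, 18.9 and 55.1 in PBS and at 42.7, 38.7, 36.8, 37.3 and 55.8 in DOX, with PBS replicates 1 to 3 again below all DOX libraries (log2 fold change 0.91, standard error 0.47, limma's adjusted p = 0.763). Without PBS replicate 4 the log2 fold changes were 1.21 for Rps9 and 1.34 for Rps15, both at an adjusted p of 0.431 from limma (0.431 to 0.921 over the alternatives for Rps9, 0.431 to 0.941 for Rps15, without DESeq2, which gave neither an adjusted p). Rps3, at the entry of the mRNA channel and also known for a part in DNA repair, was at 40.0, 47.5, 93.4 and 90.7 in PBS and at 110, 106, 83.8, 122 and 85.0 in DOX. PBS replicates 1 and 2 lay below all DOX libraries (log2 fold change 0.66, standard error 0.33, limma's adjusted p = 0.761). Rpl32 was at 19.0, 19.0, 21.5 and 28.4 in PBS and at 31.5, 48.4, 25.5, 62.7 and 32.8 in DOX, overlapping only between PBS replicate 4 and DOX replicate 3 (log2 fold change 0.79, standard error 0.41, limma's adjusted p = 0.763).

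Rps12, a protein of the beak of the small subunit, was the only tested member whose groups did not overlap. It was at 17.0, 21.1, 11.4 and 21.1 in PBS and at 29.7, 31.0, 31.7, 26.9 and 23.6 in DOX. All 5 DOX values exceeded all 4 PBS values (17.6 ± 4.61, SD, n = 4, against 28.6 ± 3.33, SD, n = 5), and the log2 fold change was 0.70 with a standard error of 0.42 (adjusted p = 0.804 from limma). Of all genes tested 1.27% did not overlap with a higher DOX group and 1.38% with a lower one, and 0 of the 51 members were of the latter kind. Rps12 shares 94.8% of the 50-base windows in its last 300 transcript bases with other annotated genes, 24 in number, and 24 pseudogene symbols carry its name, so its reads are uncertain as reads of 1 gene.

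A lower fitted mean in DOX was found for 7 tested members, Rpl13, Rpl23, Rpl37, Rps27, Rpl15, Rps19 and Rps18, of which the 6 of lowest p leave out Rps18. Rpl13, a large subunit protein, was at 75.9, 89.7, 110 and 72.1 in PBS and at 79.8, 69.7, 53.1, 68.7 and 46.6 in DOX. It had the lowest p of the 7, and 4 of the 5 DOX libraries lay below all PBS libraries (log2 fold change -0.45, standard error 0.30, limma's adjusted p = 0.821). Rpl23, at the face between the subunits, was at 41.0, 7.39, 5.05 and 29.2 in PBS and at 11.1, 7.74, 7.15, 13.4 and 7.17 in DOX. Its PBS libraries fell into a high pair, replicates 1 and 4, and a low pair below or within the DOX range (log2 fold change -0.66, standard error 0.69, limma's adjusted p = 0.894). Rpl37 (log2 fold change -0.12), Rps27 (-0.24), Rpl15 (-0.14) and Rps19 (-0.12), the gene most often altered in Diamond-Blackfan anemia, had fold changes smaller than their standard errors (0.28, 0.82, 0.60 and 0.54). Of these, Rps27, Rpl15 and Rps19 changed sign when some libraries were left out or, for Rps27 and Rpl15, with limma-voom.

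The 33 members that were not tested include some at the edge of the filter. Rps23 and Rps24 were at 10 or more in 3 libraries (means 10.5 and 8.06), while Rpl23 and Rps28 passed with 4 (means 14.4 and 15.9). Some of the low members were read in few libraries, and the next were chosen after their values were seen. Rps10 was at 29.0 in DOX replicate 2 and 30.7 in DOX replicate 5 and at 0 to 1.62 in the other 7 libraries. Rpl24 was at 23.6 in DOX replicate 5 and at 0 to 5.67 elsewhere. Rps6, whose protein is the best known target of the S6 kinases, was at 2.52 to 4.22 in PBS and 0 to 7.74 in DOX. Rps4x and Rpl13a had means of 1.07 and 1.61.

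Several members lie over another gene on the opposite strand, and there the other gene often held more reads. For 7 of the 84 members an exon of another gene with a mean of 10 or more lies over the last exon, where a 3′ tag would fall, on the other strand. Rpl23a (chromosome 11, 78180932 to 78183584, minus strand) had a mean of 2.27 normalized counts, and Tlcd1, a gene of membrane lipid composition whose exon covers 100% of the 63 bases of the last exon of Rpl23a, had 7958. Per kilobase of exon these were 2.68 and 1589. Rpl32 (chromosome 6, 115805505 to 115808747, minus strand) had 32.1 and Cand2, a cullin regulator of muscle, 2579, with 53 bases of overlap. Per kilobase Rpl32 was at 33.3 and Cand2 at 471.

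The other gene held more counts in the next pairs as well and fewer in the last. Rps25 had 175 and Ccdc84 815 (65.0 and 196 per kilobase), and Rpl35 had 17.9 and Wdr38 357 (14.4 and 124 per kilobase). Rpl31 with Tbc1d8 (31.8 and 36.6) and Rpl5 with Dipk1a (50.1 and 29.9) were closer, and Rpl28 had 43.5 against 12.5 for Ube2s, the ubiquitin-conjugating enzyme of the anaphase-promoting complex. Per kilobase the latter 3 members were the higher ones, at 19.1, 12.8 and 23.7 against 6.996, 10.3 and 2.42. Which of the overlapping genes gave the reads was not tested. Genes over the last exon of a protein-coding gene on the other strand made up 4.11% of the table's symbols found in the annotation, 11.1% of those above 0 and 42.7% of those tested. These shares count the genes that lie over another. The share of all genes whose last exon is covered, as in the members here, was not taken.

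**Figure D4:**
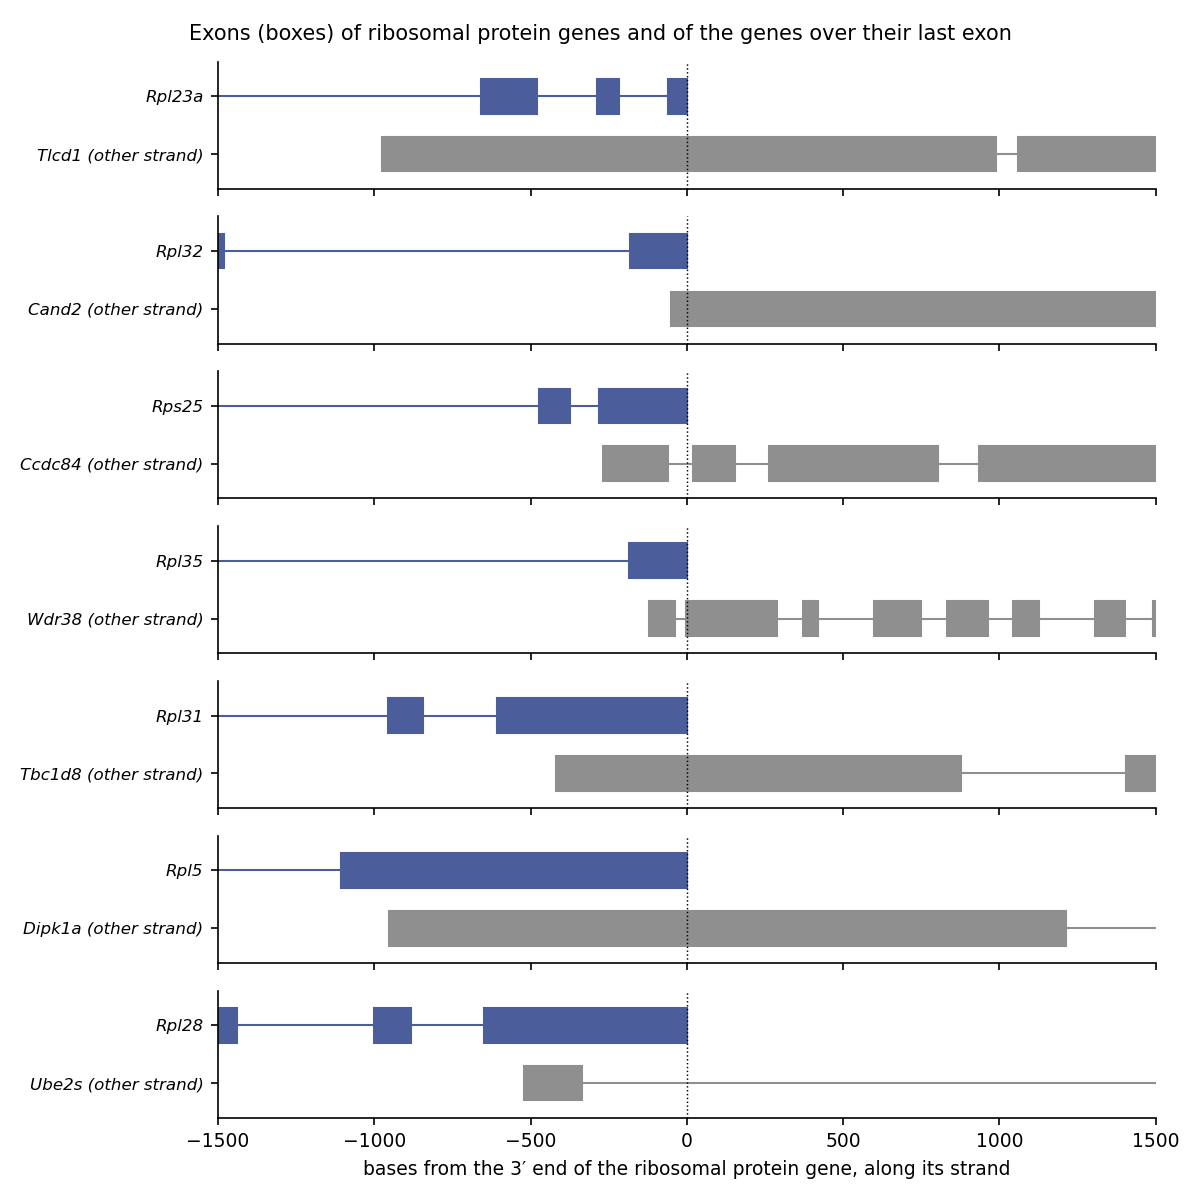
Exons (boxes) of 7 members, in blue and in the principal transcript, and of the genes on the other strand over their last exons, in grey and merged over all transcripts, by distance in bases from the 3′ end of the member along its strand (dotted line at 0). The Tlcd1 exon spans the whole last exon of Rpl23a, Cand2 reaches 53 bases into Rpl32, and the Ube2s exon lies within the last exon of Rpl28.

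In the comparison of DOX with PBS these neighbours passed no test either. Cand2 was at 1887, 1708, 2546 and 2282 in PBS and at 2333, 3031, 2262, 2942 and 4219 in DOX. The groups overlapped (log2 fold change 0.47, standard error 0.21, limma's adjusted p = 0.761). Rpl32, which shares 53 bases of its last exon with Cand2, had a log2 fold change of 0.79. Tlcd1 was at 4185, 7821, 7977 and 9633 in PBS and 9747, 6457, 8115, 9916 and 7774 in DOX, with PBS replicate 1 lowest (log2 fold change 0.23, which was -0.024 without PBS replicate 1). Wdr38 was at 200, 211, 244 and 698 in PBS and at 389, 387, 509, 365 and 214 in DOX, with PBS replicate 4 highest (log2 fold change 0.30, standard error 0.35). Ccdc84 (0.26), Tbc1d8 (0.40), Dipk1a (-0.34) and Ube2s (1.21) had log2 fold changes with adjusted p-values of 0.784 to 0.956 from limma. The 6 tested members under such an exon all had a higher fitted mean, with a median log2 fold change of 0.61, and 38 of the 45 tested members without one did, with a median of 0.38.

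**Figure D5:**
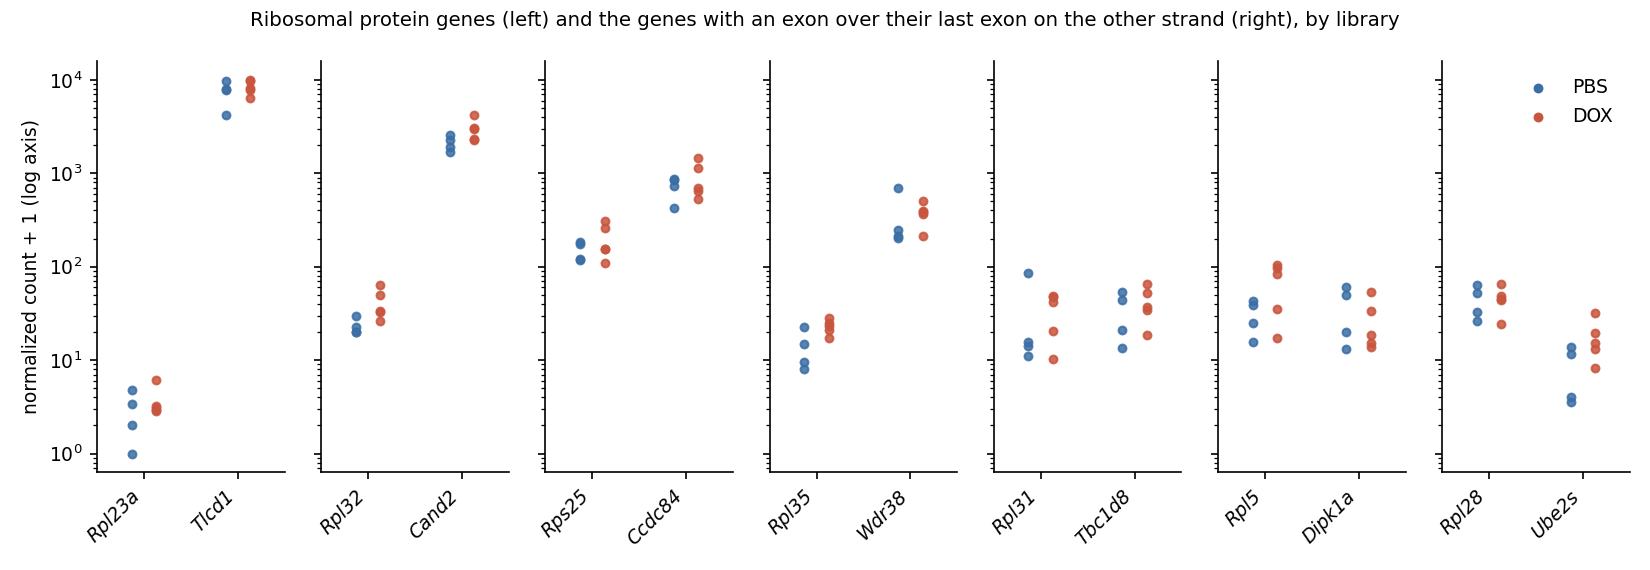
Normalized count + 1 (log axis) in each library for 7 members (left in each panel) and for the gene over the member's last exon on the other strand (right), PBS in blue and DOX in red. Tlcd1 and Cand2 lie far above Rpl23a and Rpl32 in all 9 libraries, while Rpl28 lies above Ube2s in mean (43.5 and 12.5), and the groups overlap in each gene shown.

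Exons of further genes lie over other exons of members on the opposite strand, and these were looked up after the values were seen. Sphk2, which encodes a sphingosine kinase, overlaps Rpl18 and had a mean of 2926 normalized counts against 42.6 for Rpl18. Nkiras1 over Rpl15 (160), D730044K07Rik over Rpl30 (133) and Lrsam1 over Rpl12 (120) were lower.

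Sequence shared with other genes did not sort the members by level in a simple way. Windows were taken from the last 300 bases of each gene's principal transcript, which may not be the end that was tagged. Of the 84 members 23 shared no such 50-base window with another annotated gene, and their median level was 21.01 normalized counts. It was 31.7 for the 16 with some windows shared, under 50%, and 14.9 for the 45 with 50% or more. Rplp1 shared 66.9% of its windows with 5 genes and Rpl10a 87.3% with 5, while Rpl37 and Rps3 shared none. Among members with no window shared, Rpl21 has 15 symbols with -ps and Rpsa 12, while Rps3 and Rpl4 have 0. How uniquely the reads of a member could be placed was therefore not tested by these classes. The fitted mean was higher in DOX in 13 of 15, 9 of 10 and 22 of 26 tested members of these classes, with median log2 fold changes of 0.37, 0.27 and 0.49. Members with a TOP start (11 tested, 8 higher, median 0.48) and with a listed start without one (30 tested, 26 higher, median 0.43) lay close to each other.

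Ribosomal protein pseudogenes outside the members held few reads. Of 309 symbols with -ps 89 were above 0 in some library and 1 was tested, Rpl13-ps1, at 19.0 to 25.2 in PBS and 12.7 to 26.9 in DOX (log2 fold change -0.18). They summed to 33.0 to 44.2 normalized counts in PBS and 43.0 to 63.5 in DOX, against 2056 to 3559 and 2953 to 3916 for the 84 members. Of the 89 above 0, 62 had a higher mean normalized count in DOX and 27 a lower one. The share of all genes by this measure was not taken, and these counts rest on few reads. Ribosomal proteins whose symbols fall outside the rule had 7 rows, 3 of them tested. Rack1, a scaffold on the small subunit, was at 72.9 to 89.9 in PBS and 76.1 to 117 in DOX (log2 fold change 0.20, standard error 0.27). Rps3a1 was at 2.11 to 16.4 and 9.19 to 23.2 (0.75). None of the 3 tested genes had an unadjusted p under 0.05.

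Other genes of translation did not share the direction of the members throughout. Of the 17 elongation factors and other TOP mRNA genes 7 were tested, 5 with a higher fitted mean in DOX and 0 at an unadjusted p under 0.05. Eef1a1, which carries tRNA to the ribosome, was at 18.0, 8.44, 3.79 and 2.43 in PBS and at 11.1, 11.6, 10.2, 59.0 and 26.6 in DOX, overlapping through PBS replicate 1 (log2 fold change 1.41, standard error 0.72, limma's adjusted p = 0.761). Tpt1 (0.50) and Eif5a (0.52) also had positive log2 fold changes. Of 24 initiation factors 7 were tested, with the fitted mean higher in 2 and lower in 5, and 1 of the latter, Eif4g1, had an unadjusted p under 0.05. Eif4g1, the scaffold of cap-dependent initiation, was at 71.9, 121, 90.9 and 61.6 in PBS and at 82.6, 44.5, 46.0, 27.6 and 37.4 in DOX. DOX replicate 1 alone reached into the PBS range (log2 fold change -0.89, standard error 0.37, limma's adjusted p = 0.761). Eif5b (0.40) and Eif3k (-0.37) had standard errors of 0.68 and 0.62.

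Of 17 regulators of ribosomal protein mRNA translation 3 were tested and 0 had an unadjusted p under 0.05. Tsc2, a brake on mTOR, was at 2247 to 3026 in PBS and 2703 to 3323 in DOX (log2 fold change 0.19), Rps6kb2, an S6 kinase, at 736 to 1917 and 759 to 2110 (0.12), and the stress factor Atf4 at 71.3 to 153 and 37.9 to 140 (-0.46). All 3 overlapped between the groups. Of 40 genes of ribosome biogenesis 9 were tested, with the fitted mean higher in 5 and lower in 4, of which 1, Bysl, had an unadjusted p under 0.05. Bysl, which acts in small subunit assembly, was at 3064, 2406, 3002 and 2898 in PBS and at 1729, 1653, 1808, 2151 and 2443 in DOX. Its groups overlapped only between PBS replicate 2 and DOX replicate 5 (log2 fold change -0.55, standard error 0.18, limma's adjusted p = 0.659). By mean count Tsc2, Bysl and Rps6kb2 ranked 24, 31 and 57 among all genes. Whether their counts came from their own mRNA was not tested. Bop1, of large subunit assembly, had a log2 fold change of 0.61 and Nop58, of the small nucleolar particles, of -0.63. Of 11 host genes of small nucleolar RNAs 0 were high enough to test, and the median of their means was 1.32 normalized counts. Their sums, 7.57 to 9.99 in PBS and 17.4 to 47.1 in DOX, did not overlap but rest on few reads. Of the 10 above 0, 7 had a higher mean in DOX and 3 a lower one, with no share of all genes taken by this measure. Sums of several lists were looked at, and none was tested.

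Of the mitochondrial ribosomal proteins, which serve the organelle's own ribosome, few were high enough to test. Of 83 listed genes 71 were above 0 and 7 were tested, and in DOX the fitted mean was higher in 2 and lower in 5, of which 1, Mrpl49, had an unadjusted p under 0.05. The median log2 fold change of the 7 tested was -0.13, beside 0.41 for the tested cytosolic members and -0.01 for all genes tested. Over the 71 above 0, the mean normalized count was higher in DOX in 41 and lower in 30. For the 81 cytosolic members above 0 these counts were 67 and 14. By this measure the share of all genes was not taken. Mrpl49 was at 566, 373, 685 and 429 in PBS and at 324, 315, 334, 284 and 220 in DOX, with all 5 DOX values under all 4 PBS values (log2 fold change -0.77 with a standard error of 0.24, adjusted p = 0.647 from limma). Mrpl19 had a log2 fold change of -1.23 (standard error 0.59) and Mrpl47 of -0.61 (0.38). The difference between cytosolic and mitochondrial members was not tested.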

How the data were processed

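RNA of sorted lung fibroblasts was sequenced in 9 libraries (4 PBS, 5 DOX) by MARS-seq. Per the submitters' processing notes and the methods, the authors aligned with STAR to mm10 and counted with HTSeq. Versions, the strand setting and any collapsing of molecular tags: not given in the sources used here. Each deposited signal value is a normalized count per gene. Dividing by 1 step per library, the reciprocal of DESeq2's size factor, gave whole reads for 100% of values (tolerance 1e-06). Repeated symbols (119) were summed.

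The main test was limma 3.58.1 (R 4.3.3) on log2(value + 1). On the recovered reads limma-voom, DESeq2 1.42.0 and edgeR 4.0.16 were run as alternatives, and each called 0 genes, of 581 with an adjusted p from DESeq2 and of 2604 from the others. The limma fit was also run on data simulated with planted changes, and no statement here rests on the outcome. No covariate entered, and p-values measure the spread between libraries labelled as biological replicates. Pairs of libraries within a group differed by more than sampling noise (chi-square per degree of freedom 10.1 to 60.8). Positions, exons and transcripts came from GENCODE M21 and starts from RefSeq. Python 3.11.15 was used for the summaries.

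Named genes were the 8 members of highest mean, up to 6 of lowest p in each direction, members whose groups do not overlap, the stalk, 5S particle, fusion and paralog genes, genes over a member's last exon, and up to 3 of lowest p in each other list. Some genes that this rule or the lists hold are not reported here, which left 54 named genes, 48 of them tested and 29 of them members. Members, lists and tests were chosen with earlier results of these data known. The roles, the window and TOP definitions and overlaps with other exons were set after values were seen. Alternatives covered the test, scaling, filter, pseudocount, each library left out and the replicate number as a block.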

Additional observations from a re-analysis of the deposited data

Results flagged for a closer look

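For 54 named genes and the read share of the members, the highest and lowest library of each group was compared with the rest by Dixon's criterion, which marks a library whose gap to its nearest neighbour is a large part of the group's range. Of 110 groups 5 were marked, and chance marks about 1 in 20 groups. Rpl7a was at 46.7 normalized counts in PBS replicate 3 and at 3.17 to 6.48 in the other PBS libraries, and Rps28 at 25.2 in the same library and 0.810 to 4.00 in the others. Both are the members with an unadjusted p under 0.05. Rpl3l was at 7.47 in DOX replicate 4 against 0 in the other DOX libraries. PBS replicate 4 was marked for Rps6kb2, at 1917 against 736 to 916, and for Wdr38, which lies over Rpl35, at 698 against 200 to 244.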

How the results depend on the processing

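No ribosomal protein gene passed in any of the alternatives run, where DESeq2 gave an adjusted p for 6 of the 51 tested members and for 581 of 2604 genes. Over all genes the count of calls was 0 in each alternative except that it was 3 with no filter on low values, where 17428 genes were tested. The median log2 fold change of the tested members was positive in every alternative, 0.22 (without PBS replicate 1) to 0.63 (without PBS replicate 4) with 1 library left out, and 0.31 to 0.47 without any of the other 7 libraries. It was 0.34 by edgeR, 0.35 by DESeq2, 0.40 by limma-voom, 0.62 without PBS replicate 4 and DOX replicate 2, and 0.38 over members with no exon of another gene over the last exon. The difference in read share was 0.0112 to 0.102 percentage points with 1 library left out, and 0.116 with ribosomal RNA out of the total. Replicate numbers are shared between the groups. Deviations of the same number correlated at 0.0207 to 0.0665, and the main test did not take the libraries as pairs. Among DOX replicates 1 to 4, the best correlation was with the same number for PBS replicates 1, 2 and 4. For PBS replicate 3 it was with DOX replicate 2. Whether a shared number stands for shared handling was not tested. With the number as a block 0 genes were called, 154 rather than 162 had an unadjusted p under 0.05, and the members' median was 0.40. DOX replicate 5 has no partner there. Of 912 alternative fold changes of named genes 23 turned sign, in 10 genes, all of them not called. The lowest adjusted p of a named gene was 0.0945 by DESeq2, for Mrpl49, and 0.431 by limma. With 1 library left out the log2 fold changes ran from -0.61 to 0.055 for Eif3k, -0.13 to 0.89 for Eif5b, -0.13 to 0.79 for Rpl11, -0.38 to 0.041 for Rpl15, -0.20 to 0.25 for Rpl37a, -0.10 to 0.33 for Rplp1, -0.39 to 0.27 for Rps19, -0.56 to 0.30 for Rps27, -0.12 to 0.43 for Rps6kb2 and -0.024 to 0.38 for Tlcd1. By limma-voom Rpl15 was at 0.036, Rpl37a at -0.069 and Rps27 at 0.38. Rps19 was at 0.62 without PBS replicate 4 and DOX replicate 2, and Rps6kb2 at -0.014 with the block. The cause was not tested. The shallowest library held 432322 reads. Rplp1, with 4598 reads in all, still had a standard error of 0.28 on the log2 scale, and the parts of depth and of the spread between libraries were not tested.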
